A study of Arabidopsis thaliana with 11 samples.

Results

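The 10 loci described here are transcripts whose levels differed between an inducible SPCH line and its wild type control before any inducer was given. They are QQS (AT3G30720), SADHU3-2 (AT3G42658), AT1G67105, AT2G15420, AT3G31540, AT4G30330, AT5G35935, AT4G22510, AT4G22513 and AT4G22517, out of 33602 loci in the table. They were picked by hand for the gap between the untreated group means of the lines, so that gap is given as a description only and is not tested. Messenger RNA came from whole light-grown Arabidopsis thaliana seedlings at 4 days of age, in 11 libraries. One line was Columbia (Col) without a construct (WT). The other carried ESTpro:SPCH1-4A-YFP, a form of the transcription factor SPEECHLESS (SPCH) tagged with YFP and placed behind an estradiol-responsive promoter (iSPCH). Untreated seedlings of each line are called 0 h, and the others spent 6 h or 8 h in 10 µM beta-estradiol. Each group had 2 libraries, except that WT 0 h had 1. WT received the same estradiol treatment but lacks the whole construct. The labels do not say whether iSPCH is 1 transgenic event, how often it was crossed or selfed apart from WT, or whether the libraries of a pair are separate cultures. The p values below therefore measure only the spread between these samples.

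Among these loci are QQS and a SADHU element, and RNA levels of QQS and of SADHU elements are known to differ between accessions. Whether differences of that kind underlie the gaps between these lines was not tested. Transposable elements and their relics are held silent in plants by DNA methylation and by small RNAs that guide it, and such silencing can be lost or gained and then inherited. QQS is an orphan gene, found in A. thaliana and without recognisable relatives in other species, whose level influences how much starch a leaf holds. Its level is known to vary between natural accessions along with DNA methylation near its start. SADHU elements are retroposons that differ in expression between accessions.

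The sequences that identify the main loci are from RefSeq, assembly TAIR10.1, and are written 5′ to 3′. The coding sequence of QQS is shown because it has no relatives through which a reader could place it. It spans chr3:12349461-12349726 on the plus strand, has 180 bases, and its start and stop codons are in capitals.
QQS coding sequence: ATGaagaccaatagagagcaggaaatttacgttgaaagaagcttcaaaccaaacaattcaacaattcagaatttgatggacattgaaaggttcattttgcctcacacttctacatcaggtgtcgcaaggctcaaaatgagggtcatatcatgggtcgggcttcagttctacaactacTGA
The 250 bases upstream of the annotated starts of QQS (chr3:12348797-12349046, plus strand) and SADHU3-2 (chr3:14750295-14750544, minus strand) are shown with their CG dinucleotides, the main site of heritable DNA methylation in plants, in capitals.
QQS upstream: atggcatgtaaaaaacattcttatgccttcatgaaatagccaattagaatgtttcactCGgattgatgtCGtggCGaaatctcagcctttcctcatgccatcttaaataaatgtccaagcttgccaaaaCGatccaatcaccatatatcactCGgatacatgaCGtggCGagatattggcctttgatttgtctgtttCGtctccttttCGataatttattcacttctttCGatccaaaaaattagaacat
SADHU3-2 upstream: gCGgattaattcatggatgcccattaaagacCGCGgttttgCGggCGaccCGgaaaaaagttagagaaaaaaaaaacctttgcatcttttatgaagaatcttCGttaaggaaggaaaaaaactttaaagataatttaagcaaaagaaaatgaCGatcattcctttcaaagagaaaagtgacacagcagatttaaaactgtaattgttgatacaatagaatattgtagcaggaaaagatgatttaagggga
The QQS window holds 10 CG dinucleotides, at percentile 89.9 of 32835 loci, and the SADHU3-2 window holds 8, at percentile 82.1. The median locus holds 5. In the QQS window, 50 bases from position 40 recur from position 134 with 38 of 50 bases identical, which is 76.0%, and both copies hold CG dinucleotides. In the SADHU3-2 window the best such pair has 25 of 50 bases identical. Among the other 8 loci, the CG count ran from 1 for AT4G22510 to 15 for AT3G31540. The letters CACGTG, a sequence that many basic helix-loop-helix factors such as SPCH's relatives bind, were searched on both strands. They are in 0 of the 10 upstream windows and in 5.83% of all 32835, so 0 of 10 is near the background. Methylation was not measured in these libraries.

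The libraries held 15.66M to 32.81M assigned reads, the shallowest from iSPCH at 6 h and the deepest from WT 0 h. Levels below are normalised read counts per library, recovered from the deposited group means as set out under the processing, and A and B name the members of a pair of libraries in no given order. SPCH itself (AT5G53210) held 178 in WT 0 h and 170 and 232 in iSPCH 0 h. It held 37220 and 37520 in iSPCH at 6 h, 41640 and 39760 at 8 h, and 99.5 to 141 in the 4 treated WT libraries. The treated libraries thus match their line labels, and the hours are not checked by this. At 0 h, the hour at which the 10 loci were chosen, the WT value of SPCH lay between those of iSPCH, so SPCH does not check the line labels of the untreated libraries. Line differences are log2(value + 1) in iSPCH minus WT, with the standard error (SE) of limma over all libraries. Adjusted p values are Benjamini-Hochberg values over 19665 tested loci, and 0.05 is the threshold for a call.

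All 10 loci were far apart at 0 h, which is what they were chosen for. For none of the 10 did the libraries of the lines overlap at 0 h, 6 h or 8 h, but with 1 or 2 libraries a group that alone sets a locus little apart, since 70.5% of all tested loci did not overlap at 0 h, 48.1% at 6 h and 50.7% at 8 h. In whole seedlings, fewer cells of a type and less RNA per cell cannot be told apart for any of these values. At 0 h, 5 of them were higher in iSPCH (QQS, SADHU3-2, AT1G67105, AT2G15420 and AT5G35935) and the other 5 lower. The 10 were picked with earlier results of these data known, so the calls at 6 h and 8 h are not independent of the choice. At 6 h, 7 of the 10 were called, beside 4.71% of all tested loci. The 5 that were higher before induction were called higher, where the background is 1.16%, and AT3G31540 and AT4G30330 were called lower, where it is 3.55%. At 8 h, 9 of the 10 were called, against 10.7% of all loci. The same 5 were called higher (background 4.75%), and AT3G31540, AT4G30330, AT4G22510 and AT4G22513 were called lower (background 5.95%). AT4G22510 and AT4G22513 share exonic bases, so their calls are not independent of each other. The filter on low reads was passed by AT2G15420 through iSPCH libraries alone, and by AT3G31540 and AT4G30330 through WT libraries alone, so these 3 could enter the test only because one line held them. They are among the 7 called at 6 h and the 9 called at 8 h. For the 7 loci called at both hours, the 0 h gap and both later differences had one sign, and the later differences were 1.64 or more in size. The 3 neighbouring loci on chromosome 4 had gaps of -1.87 to -1.72 at 0 h and later differences of -0.997 to -0.51.

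**Figure D1:**
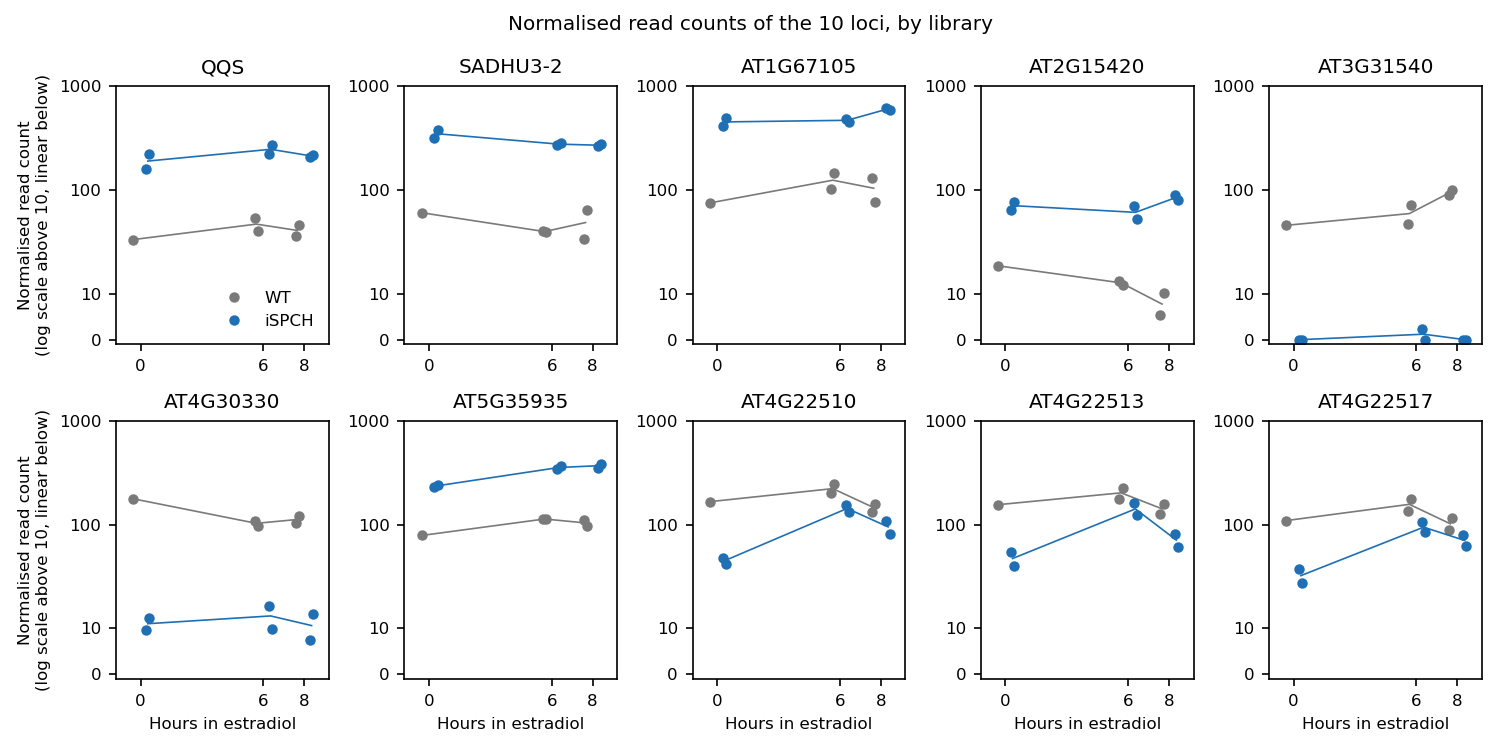
Normalised read counts (log scale above 10, linear below) of the 10 loci against hours in estradiol, 1 point per library, set slightly apart sideways, with lines through the group means (WT grey, n = 1 at 0 h and 2 at 6 h and 8 h; iSPCH blue, n = 2). QQS sits at 33.1 to 53.1 in WT and at 158 to 269 in iSPCH, while the chromosome 4 loci in the last 3 panels draw close together at 6 h.

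QQS, at chr3:12349047-12349933 on the plus strand, held 33.1 in WT 0 h, 53.1 and 40.2 in WT at 6 h, and 35.8 and 45.3 at 8 h. The iSPCH libraries held 158 and 220 at 0 h, 222 and 269 at 6 h, and 205 and 218 at 8 h. Every iSPCH library of any hour was thus above every WT library of any hour. At 0 h the gap was 2.46, or 5.50-fold on the scale with 1 added. The difference was 2.38 ± 0.20 at 6 h (limma, adjusted p = 8.45e-06) and 2.36 ± 0.20 at 8 h (adjusted p = 3.07e-06). Within WT, 8 h minus 6 h was -0.19 ± 0.20 (limma, adjusted p = 0.795), and within iSPCH it was -0.21 ± 0.20 (adjusted p = 0.619). Its 3 exon blocks hold 687 bases, and no other place in the genome matches it at 95% identity over 100 bases.

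SADHU3-2, at chr3:14749400-14750294 on the minus strand, is annotated as a pseudogene of a non-coding retroposon family. It held 60.1 in WT 0 h, 39.8 and 39.2 in WT at 6 h, and 33.2 and 63.5 at 8 h. Its iSPCH values were 319 and 376 at 0 h, 270 and 280 at 6 h, and 261 and 276 at 8 h. The lowest iSPCH library stood above the highest WT library of any hour. Its gap at 0 h was 2.51, and the difference was 2.77 ± 0.23 at 6 h (limma, adjusted p = 1.88e-05) and 2.52 ± 0.23 at 8 h (adjusted p = 1.31e-05).

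The other SADHU elements were read in the same way. The table holds 16, of which 11 could be tested, and of the 10 besides SADHU3-2 limma called 0 at 6 h and 0 at 8 h, as did edgeR and DESeq2, while 2 had an unadjusted p under 0.05 at each hour. With 4.71% and 10.7% of all loci called at these hours, 0 of 10 is near the background. Their differences ran from -0.46 (SADHU6-1) to 0.56 (SADHU5-1) at 6 h and from -0.41 (SADHU7-1) to 0.18 (SADHU5-1) at 8 h. The most abundant, SADHU1-1 (AT2G10410), held 2543 in WT 0 h and 1826 and 2292 in iSPCH 0 h, and its difference was -0.17 ± 0.14 at 6 h (limma, adjusted p = 0.598) and -0.05 ± 0.14 at 8 h (adjusted p = 0.879). SADHU3-1 (AT3G44042), the element nearest in name, had 15 reads in all 11 libraries and was not tested. Its exons are 72.0% identical to those of SADHU3-2.

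**Figure D2:**
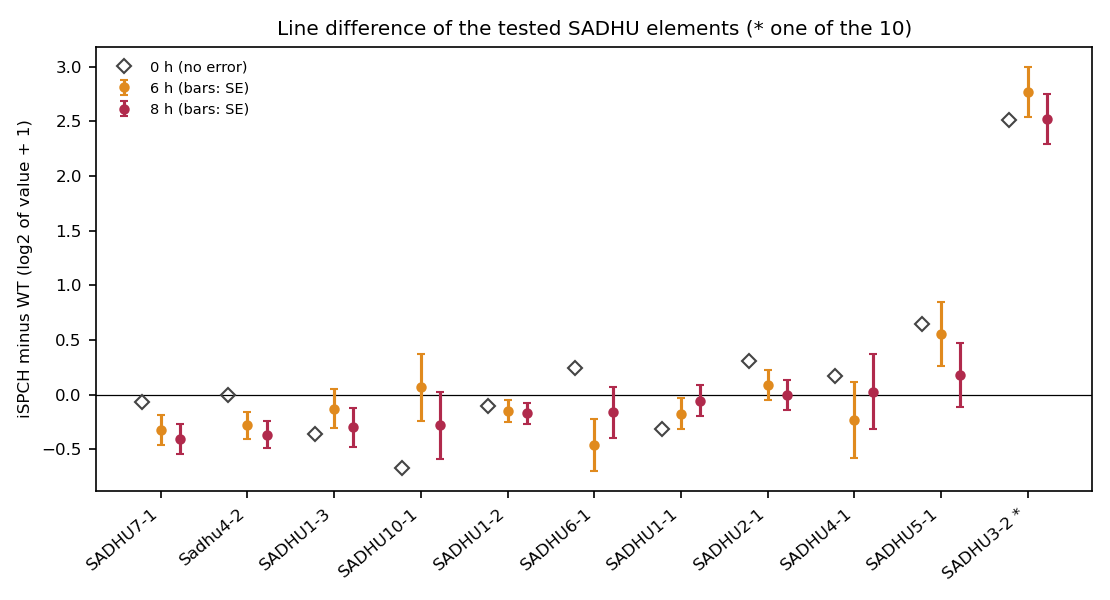
Line difference (iSPCH minus WT, log2 of value + 1) of the 11 tested SADHU elements at 0 h (open diamonds, no error), 6 h and 8 h (points, bars are SE; n = 2 libraries a group, WT 0 h n = 1). SADHU3-2, marked with an asterisk, sits between 2.51 and 2.77 while the other 10 sit between -0.67 and 0.65.

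AT1G67105, at chr1:25057479-25058264 on the plus strand, is annotated as a non-coding RNA. It held 74.7 in WT 0 h, 102 and 145 in WT at 6 h, and 131 and 75.9 at 8 h. In iSPCH it held 410 and 491 at 0 h, 486 and 448 at 6 h, and 620 and 584 at 8 h. The iSPCH libraries were highest at 8 h, and at 6 h and 8 h the WT libraries of a pair differed by more than those of iSPCH. The gap at 0 h was 2.57, and the difference was 1.93 ± 0.24 at 6 h (limma, adjusted p = 0.00183) and 2.58 ± 0.24 at 8 h (adjusted p = 8.65e-05).

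AT2G15420, at chr2:6723948-6728183 on the minus strand, codes for a protein annotated as myosin heavy chain-like. It held 18.5 in WT 0 h, 13.3 and 12.1 in WT at 6 h, and 5.24 and 10.2 at 8 h. The iSPCH libraries held 63.9 and 76.8 at 0 h, 69.3 and 51.8 at 6 h, and 89.2 and 79.6 at 8 h. WT was lowest and iSPCH highest at 8 h, and the 8 h values of WT rest on 6 and 9 reads. At 0 h the gap was 1.87, the difference at 6 h was 2.16 ± 0.31 (limma, adjusted p = 0.00098), and that at 8 h was 3.35 ± 0.31 (adjusted p = 5.96e-06). The locus passed the filter on low reads through iSPCH libraries alone, so a line difference was part of how it entered the test. The increase of the difference from 6 h to 8 h, 1.19 ± 0.43, did not pass the test (limma, adjusted p = 0.318).

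AT5G35935, at chr5:14083388-14089891 on the minus strand, is an annotated pseudogene of 6504 bases and had the smallest gap of the 10. It held 78.6 in WT 0 h, 113 and 114 in WT at 6 h, and 110 and 97.5 at 8 h. Its iSPCH values were 232 and 239 at 0 h, 342 and 368 at 6 h, and 353 and 388 at 8 h. Both lines held more under estradiol than at 0 h, and the lines stayed about equally far apart. Its gap at 0 h was 1.57, and the difference was 1.64 ± 0.12 at 6 h (limma, adjusted p = 2.4e-06) and 1.83 ± 0.12 at 8 h (adjusted p = 2.86e-07). Outside the locus, 109 bases at chr5:14083274-14083382 match part of it at 97.248% identity, so reads could be shared there.

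AT3G31540, at chr3:12843392-12845748 on the minus strand, is an annotated pseudogene that was almost without reads in iSPCH. Its reads in iSPCH numbered 0 and 0 at 0 h, 3 and 0 at 6 h, and 0 and 0 at 8 h. In WT it had 59 reads at 0 h, 49 and 71 at 6 h, and 102 and 88 at 8 h, or normalised counts of 45.4, of 46.4 and 71.4, and of 89.0 and 99.7. The lines therefore did not overlap at any hour, and 5 of the 6 iSPCH libraries had no read. With a floor of 3 reads over the group, iSPCH was at least 31.5-fold lower at 0 h and at least 56.5-fold lower at 8 h. At 6 h, where 3 reads stood against 120, it was 38.7-fold lower, with a 95% exact counting interval of 12.9 to 190.0. Reads without molecular identifiers are not independent molecules, so the floor and interval cover counting error only. The limma difference passed the test at both hours, with an adjusted p of 0.000377 at 6 h and of 7.93e-06 at 8 h. Its size is set by the added count of 1 and is not given. AT3G31540 passed the filter on low reads through WT libraries alone, so a line difference was part of how it entered the test.

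AT3G31540 has a close copy, AT3G43000, also an annotated pseudogene on chromosome 3, with 95.732% identity over 656 bases. Reads could be shared between them. AT3G43000 had 18 reads in all and was not tested; they all came from WT libraries, with normalised counts of 1.54 at 0 h, 1.90 and 1.01 at 6 h, and 5.24 and 7.93 at 8 h.

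AT4G30330, at chr4:14836548-14838149 on the minus strand, codes for an SmE-type protein of the small nuclear ribonucleoproteins, the particles that splice messenger RNA. It held 177 in WT 0 h, 108 and 97.6 in WT at 6 h, and 104 and 120 at 8 h. In iSPCH it held 9.54 and 12.6 at 0 h, 16.5 and 9.80 at 6 h, and 7.43 and 13.8 at 8 h. The iSPCH values rest on 7 to 21 reads a library and show no order by hour, whereas WT was highest at 0 h. The gap at 0 h was -3.89, so WT stood 14.9-fold above iSPCH on the scale with 1 added. The difference was -2.91 ± 0.32 at 6 h (limma, adjusted p = 0.00011) and -3.33 ± 0.32 at 8 h (adjusted p = 8.76e-06). AT4G30330 passed the filter on low reads through WT libraries alone, so a line difference was part of how it entered the test.

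Its paralog AT2G18740 codes for the same kind of protein, and the first 120 coding bases of both are shown because a level of one means something only as far as its reads can be told from those of the other. Bases that differ between them are in capitals. The first stretch lies within chr4:14836773-14837919 on the minus strand, the second within chr2:8123334-8124581 on the plus strand, both with introns removed.
AT4G30330 first bases of the coding sequence: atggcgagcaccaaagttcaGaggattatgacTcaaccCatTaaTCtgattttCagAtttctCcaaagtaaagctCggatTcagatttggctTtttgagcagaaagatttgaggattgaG
AT2G18740 first bases of the coding sequence: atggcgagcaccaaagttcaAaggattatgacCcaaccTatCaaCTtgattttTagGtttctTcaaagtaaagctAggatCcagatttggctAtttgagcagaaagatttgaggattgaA
In this stretch 13 bases differ, and over all 267 coding bases 32 differ, which leaves 88.0% identity. AT2G18740 held 667 in WT 0 h, 651 and 608 in WT at 6 h, and 623 and 634 at 8 h. The iSPCH libraries held 577 and 533 at 0 h, 675 and 723 at 6 h, and 705 and 763 at 8 h. It was slightly lower in iSPCH at 0 h and slightly higher later. The difference was 0.15 ± 0.09 at 6 h (limma, adjusted p = 0.393) and 0.22 ± 0.09 at 8 h (adjusted p = 0.125). Of 12 Sm core protein genes tested, AT2G18740 included and AT4G30330 not, limma, edgeR and DESeq2 each called 0 at 6 h and 0 at 8 h, and 2 had an unadjusted p under 0.05 at each hour. The background is 4.71% and 10.7%, so 0 of 12 does not set the list apart. Their median difference was 0.09 at 6 h and 0.07 at 8 h, beside 0.0049 and -0.03 for all tested loci. The smallest p of the list at 8 h was that of SmD1-a (AT3G07590), at 0.40 ± 0.14 (limma, adjusted p = 0.0873). At 6 h SmD1-a differed by 0.38 ± 0.14 (limma, adjusted p = 0.16).

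**Figure D3:**
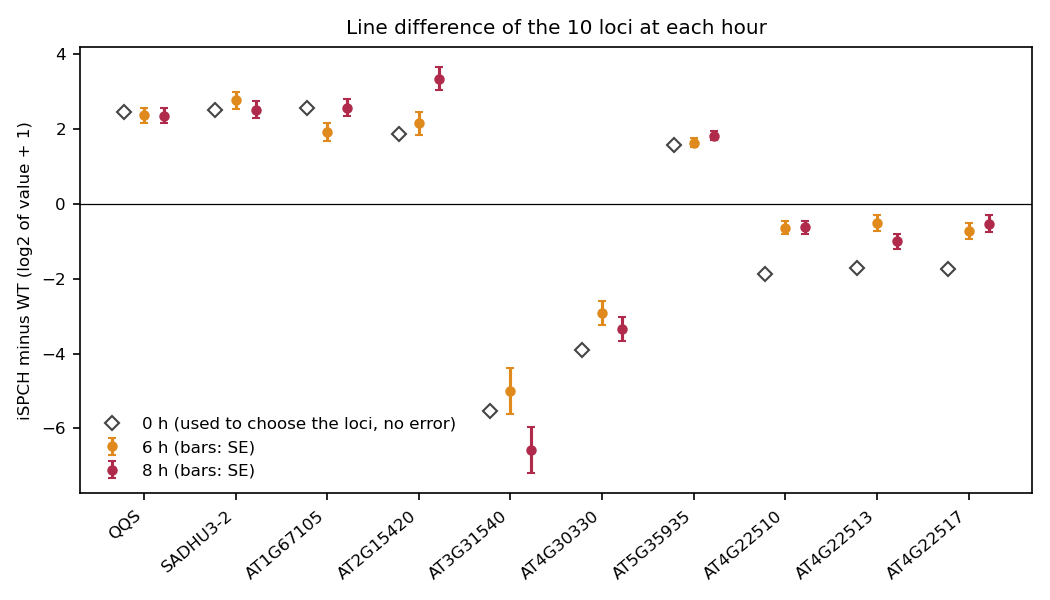
Line difference (iSPCH minus WT, log2 of value + 1) of the 10 loci at 0 h (open diamonds, used to choose the loci, no error), 6 h and 8 h (points, bars are SE; n = 2 libraries a group, WT 0 h n = 1). For QQS the 3 values lie between 2.36 and 2.46, while AT4G22510 goes from -1.87 at 0 h to -0.63 and -0.62; points of AT3G31540 depend on the added count.

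AT4G22510, AT4G22513 and AT4G22517 lie within chr4:11854796-11857417. AT4G22513 (chr4:11854809-11855439) and AT4G22517 (chr4:11856743-11857362), on the plus strand, code for proteins of the lipid transfer and protease inhibitor superfamily, small secreted proteins many of which bind lipids. AT4G22510, on the minus strand, codes for an uncharacterised protein and overlaps both. It shares 384 exonic bases with AT4G22513 and 280 with AT4G22517, which are 52.5% and 38.3% of its own exons. The strand setting of the counting is not given in the sources used here, so reads of AT4G22510 and of its partners cannot be told apart, and the 3 are not independent. The coding sequences of the pair on the plus strand are 95.7% identical, with 15 of 348 bases different. The first 120 are shown for that reason, from chr4:11854868-11854987 and chr4:11856810-11856929, with the 4 differing bases in capitals.
AT4G22513 first bases of the coding sequence: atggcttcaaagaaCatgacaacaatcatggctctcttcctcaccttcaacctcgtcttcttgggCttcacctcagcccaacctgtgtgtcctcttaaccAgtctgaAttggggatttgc
AT4G22517 first bases of the coding sequence: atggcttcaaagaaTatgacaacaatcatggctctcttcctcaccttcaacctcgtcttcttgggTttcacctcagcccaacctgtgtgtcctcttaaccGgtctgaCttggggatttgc
How the counting treated reads that match both loci is not given in the sources used here.

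AT4G22510 held 166 in WT 0 h, 201 and 244 in WT at 6 h, and 133 and 159 at 8 h. Its iSPCH values were 47.7 and 41.8 at 0 h, 154 and 132 at 6 h, and 109 and 80.8 at 8 h. WT was highest at 6 h and lowest at 8 h, whereas iSPCH was highest at 6 h and lowest at 0 h. At 0 h the gap was -1.87. The difference at 6 h was -0.63 ± 0.18 and did not pass the test (limma, adjusted p = 0.0625), and that at 8 h was -0.62 ± 0.18 and passed it (adjusted p = 0.0386). With edgeR the 6 h difference passed too, at -0.62 (adjusted p = 0.0354). The 8 h call was lost in 8 of 21 alternatives. Without library B of iSPCH 8 h the difference was -0.40 (limma, adjusted p = 0.318), and without library B of WT 8 h it was -0.49 (adjusted p = 0.26).

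AT4G22513 held 156 in WT 0 h, 178 and 226 in WT at 6 h, and 127 and 158 at 8 h. In iSPCH it held 54.4 and 39.9 at 0 h, 160 and 123 at 6 h, and 80.7 and 61.1 at 8 h. The iSPCH libraries again stood highest at 6 h, and came closest to those of WT there. Its gap at 0 h was -1.72, the difference at 6 h was -0.51 ± 0.21 (limma, adjusted p = 0.206), and that at 8 h was -0.997 ± 0.209 (adjusted p = 0.00603). The 8 h call was lost without library B of iSPCH 8 h (-0.80, limma, adjusted p = 0.0749) and without library B of WT 8 h (-0.84, adjusted p = 0.0852).

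AT4G22517 held 109 in WT 0 h, 136 and 177 in WT at 6 h, and 88.2 and 116 at 8 h. The iSPCH libraries held 37.2 and 27.2 at 0 h, 105 and 84.0 at 6 h, and 78.6 and 62.3 at 8 h. It followed the order of AT4G22510 over the groups in both lines. The gap at 0 h was -1.75, the difference at 6 h was -0.72 ± 0.22 (limma, adjusted p = 0.0796), and that at 8 h was -0.52 ± 0.22 (adjusted p = 0.16). With edgeR the 6 h difference was -0.70 and passed the test (adjusted p = 0.0469).

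The 3 loci stood higher at 6 h than at 0 h by 1.53 to 1.65 in iSPCH and by 0.37 to 0.50 in WT, which is a description, since 0 h served to choose them. From 6 h to 8 h in iSPCH, 1 of the 10 loci was called lower (background 3.54%) and 0 higher (background 3.97%), beside 7.51% of all loci in either direction. It was AT4G22513, which fell by 0.99 ± 0.21 (limma, adjusted p = 0.00893). That call was lost without library A of iSPCH 6 h (-0.80, limma, adjusted p = 0.0714) and without library B of iSPCH 8 h (-0.79, adjusted p = 0.102). In WT limma called 0 of the 10 between 6 h and 8 h (background 0.412%), as did edgeR and DESeq2, and 4 had an unadjusted p under 0.05. DESeq2 gave no adjusted p for 2 of them. The line difference at 8 h minus that at 6 h was called by limma, edgeR and DESeq2 for 0 of the 10 (background 1.12%), and 1 had an unadjusted p under 0.05. Reads of AT4G22513 per read of AT4G22510 numbered 0.738 and 0.757 in the iSPCH 8 h libraries and 0.887 to 1.14 in the other 9. For AT4G22517 the ratio was 0.638 to 0.78 in all 11.

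Low levels in untreated iSPCH were also found along this stretch of chromosome 4, at loci outside the 10. From AT4G22460 to AT4G22530 the table has 10 loci. All but AT4G22510 and AT4G22530 code for lipid transfer or related proteins, and both of these overlap a locus that does. AT4G22485, a lipid transfer superfamily gene, held 887 in WT 0 h and 368 and 312 in iSPCH 0 h. AT4G22505 held 638 in WT 0 h and 190 and 129 in iSPCH 0 h. The gaps were -1.38 for AT4G22485, -1.31 for AT4G22490, -2.02 for AT4G22505 and -1.71 for AT4G22520. They were smaller for AT4G22460 (-0.28) and AT4G22470 (-0.53), and for AT4G22530 (-0.18), which spans AT4G22520.

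At several of these loci the libraries of a pair stood far apart under estradiol. AT4G22505 held 798 and 1310 in WT at 6 h and 730 and 277 in iSPCH, so the lines were apart, but its difference of -1.18 ± 0.62 did not pass the test (limma, adjusted p = 0.407). Of the 7 loci of the run outside the 10, limma, edgeR and DESeq2 called 0 at 6 h, with 0 at an unadjusted p under 0.05, and each tool called 1 at 8 h. That was AT4G22530, a methyltransferase superfamily gene at the end of the run, and it was higher in iSPCH, by 1.16 ± 0.18 (limma, adjusted p = 0.000597). It overlaps AT4G22520 on the opposite strand, so reads could be shared between them.

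**Figure D4:**
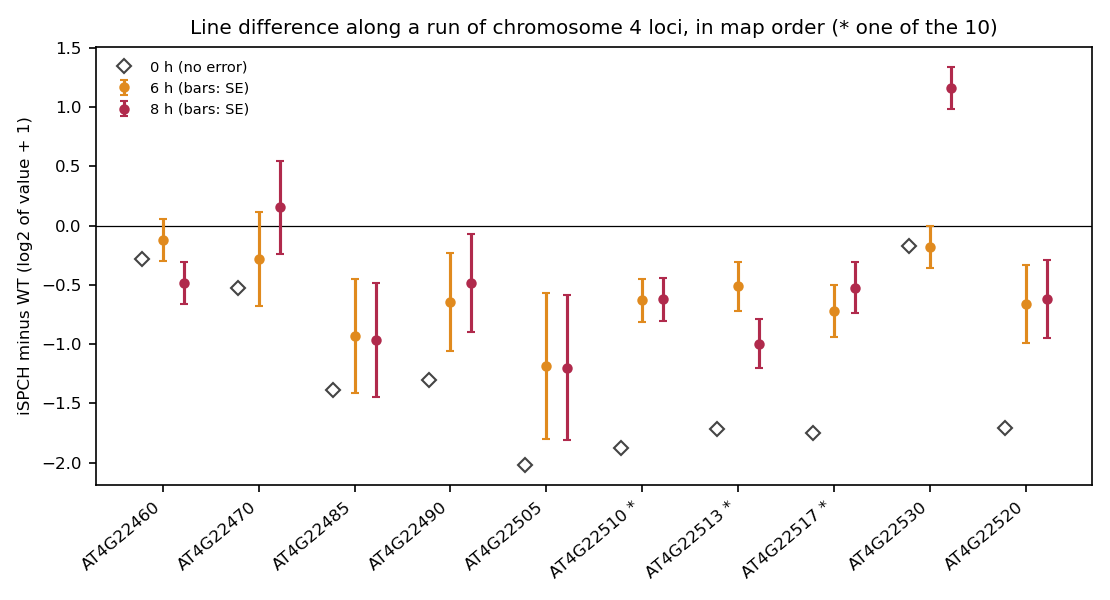
Line difference (iSPCH minus WT, log2 of value + 1) of 10 neighbouring loci on chromosome 4, ordered by start, at 0 h (open diamonds, no error), 6 h and 8 h (points, bars are SE; n = 2 libraries a group, WT 0 h n = 1). At 0 h the loci from AT4G22485 to AT4G22517, and AT4G22520, sit between -2.02 and -1.31, and asterisks mark the 3 of them among the chosen loci.

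Around the other chosen loci most neighbours held too few reads to be tested. Within 5 loci on each side of the 10 there are 80 loci besides the 10 themselves, of which 33 could be tested. At 6 h, 3 of those (9.09%) were called and at 8 h 6 (18.2%), beside the background of 4.71% and 10.7%. All 10 neighbours of QQS and all 10 of AT3G31540 were below the filter, with mean normalised counts of at most 0.622 and 0.889. Beside SADHU3-2 only AT3G42660, 986 bases away, and CLSY1 (AT3G42670), 5504 bases away, were tested. AT3G42660 differed by 0.12 ± 0.11 at 6 h (limma, adjusted p = 0.656) and by 0.17 ± 0.11 at 8 h (adjusted p = 0.407).

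AT4G30330 lies 23 bases from DGK7, a diacylglycerol kinase gene, which was also lower in iSPCH but far less. The DGK7 difference was -0.32 ± 0.11 at 6 h (limma, adjusted p = 0.131) and -0.64 ± 0.11 at 8 h (adjusted p = 0.00151), with -0.17 at 0 h. AT5G35940, 683 bases from AT5G35935, went the other way from it. Its difference was -1.25 ± 0.16 at 6 h (limma, adjusted p = 0.000567) and -1.55 ± 0.16 at 8 h (adjusted p = 2.15e-05), with -0.53 at 0 h. The only other neighbour called at both hours in one direction was DIN9 (AT1G67070), 12820 bases from AT1G67105, at 0.49 ± 0.13 (limma, adjusted p = 0.0407) and 0.78 ± 0.13 (adjusted p = 0.00109). Nearest of the tested loci to AT1G67105 was CYP735A2, a cytokinin hydroxylase gene, with -0.69 ± 0.53 (limma, adjusted p = 0.577) and -0.08 ± 0.53 (adjusted p = 0.953). Next to AT2G15420, the RNA polymerase II subunit gene NRPB3 differed by -0.07 ± 0.11 (limma, adjusted p = 0.804) and 0.07 ± 0.11 (adjusted p = 0.78).

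Per length, the order of the 10 loci differed between the untreated lines. In WT 0 h the normalised count per kilobase of exon was 247 for AT4G22513, 245 for AT4G30330, 227 for AT4G22510 and 176 for AT4G22517. It was 95.1 for AT1G67105, 67.1 for SADHU3-2, 48.2 for QQS, 21.6 for AT3G31540, 12.1 for AT5G35935 and 6.43 for AT2G15420. That is 1 library, so neighbours in this order have no spread to be told apart by. In iSPCH 0 h the mean per kilobase was 573 for AT1G67105, 388 for SADHU3-2 and 275 for QQS. Then came 74.7 for AT4G22513, 61.1 for AT4G22510, 52.0 for AT4G22517, 36.2 for AT5G35935, 24.5 for AT2G15420, 15.4 for AT4G30330 and 0 for AT3G31540. The libraries of AT4G22513 and AT4G22510 overlapped on this scale, as did those of AT4G22510 and AT4G22517, and all other neighbours in the order were apart.

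Across the 11 libraries the first 7 loci divided by line and the chromosome 4 trio only in part. Between any 2 of the 7, Pearson's r of the log2 values was 0.885 to 0.972 in size, positive among loci higher in the same line and negative otherwise. Among the chromosome 4 loci r was 0.965 to 0.993, and between the sets it was 0.488 to 0.767 in size. The points share line, hour and library, and the loci were chosen for their gap, so these values describe the libraries and carry no test. Among loci outside the 10, those most like QQS were AT3G33072 (r = 0.90), LBD26 (0.90) and ZPR3 (0.90). Those most like SADHU3-2 were AT5G15360 (0.94), AT3G33072 (0.92) and NRPA2 (0.90), and those most like AT1G67105 were LBD26 (0.89), AT3G33072 (0.88) and AT5G19420 (0.88). Those most like AT4G30330 were AT4G04223 (0.92), AT1G22000 (0.92) and AT5G25490 (0.88).

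AT3G33072, an annotated pseudogene, held 2.31 in WT 0 h, 3.79 and 2.01 in WT at 6 h, and 2.62 and 1.13 at 8 h. Its iSPCH values were 42.0 and 24.3 at 0 h, 21.3 and 19.6 at 6 h, and 10.6 and 15.0 at 8 h. The difference was 2.50 ± 0.53 at 6 h and 2.29 ± 0.53 at 8 h. Its WT values are near the floor, so it could enter the test only through iSPCH libraries. AT4G04223, annotated as a non-coding RNA, held 109 in WT 0 h against 16.2 and 38.9 in iSPCH 0 h. At 6 h it held 217 and 150 in WT against 44.1 and 26.6 in iSPCH, and the difference was -2.36 ± 0.36. AT3G33072 and AT4G04223 were picked for their likeness over all 11 libraries. Their line differences follow from that choice, so no p values are given for them.

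The 10 loci are not all that differed. The choice had no stated threshold, and the smallest gap among the 10 was the 1.57 of AT5G35935. Outside the 10, 11 tested loci were higher in iSPCH at 0 h by at least as much and 13 lower. Of these, 2 and 3 were called in the same direction at both hours, and their median differences were 0.82 and -0.82 at 6 h and 1.05 and -0.71 at 8 h. At all 3 hours 4 loci outside the 10, all called at 6 h and 8 h in the direction of their 0 h gap, were apart by at least the 1.57 that AT5G35935 showed at 0 h. These were AT3G33072, AT4G04223, AT1G43590 and AT5G15360. AT3G33072 and AT5G15360 passed the filter on low reads through iSPCH libraries alone, and AT1G43590 through WT libraries alone. A line difference was thus part of how they entered the test, and their calls are a description. Over all tested loci the median size of the line difference was 0.13 at 0 h, 0.13 at 6 h and 0.15 at 8 h, and the 99th percentile was 0.82, 1.19 and 1.63. By size of difference QQS ranked 10 of 19665 at 0 h, 29 at 6 h and 98 at 8 h. AT4G22510 ranked 19, 958 and 1602.

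The silencing machinery was looked at through a list of its genes. Of 34 genes of DNA methylation, RNA-directed methylation and demethylation, 33 were tested. At 6 h 0 were higher and 1 lower, and at 8 h again 0 were higher and 1 lower, where the background in either direction is 4.71% and 10.7%, so few calls are to be had in a list of this length. The one at 6 h was CLSY1 (CHR38), a chromatin remodeller that helps start small RNA production and the neighbour of SADHU3-2 named above. It held 189 and 196 in WT and 142 and 136 in iSPCH, and the difference was -0.47 ± 0.12 (limma, adjusted p = 0.0387). At 0 h it was near equal, with 195 against 201 and 182. At 8 h the CLSY1 difference was -0.17 ± 0.12 (limma, adjusted p = 0.451). The one at 8 h was VIM1, which helps keep CG methylation through cell division, at -0.39 ± 0.11 (limma, adjusted p = 0.0288). At 6 h the VIM1 difference was -0.09 ± 0.11 (limma, adjusted p = 0.728). Of the 33, edgeR called 1 at each hour and DESeq2 called 0 at either hour. MET1, the enzyme that maintains CG methylation, differed by 0.0037 ± 0.10 at 6 h (limma, adjusted p = 0.991) and by -0.0017 ± 0.10 at 8 h (adjusted p = 0.995). DDM1, a chromatin remodeller needed for methylation of transposons, differed by 0.02 ± 0.13 at 6 h (limma, adjusted p = 0.955) and by 0.40 ± 0.13 at 8 h (adjusted p = 0.0647). The list's median difference was 0.06 at 6 h and -0.01 at 8 h, beside 0.0049 and -0.03 for all loci.

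Of a pair of genes that DNA methylation keeps silent in Columbia, FWA and SDC, only FWA had enough reads to test. FWA held 26.2 in WT 0 h and 7.63 and 8.75 in iSPCH 0 h. Its difference was -0.76 ± 0.47 at 6 h (limma, adjusted p = 0.441) and -0.19 ± 0.47 at 8 h (adjusted p = 0.872), with an unadjusted p over 0.05 at both hours. It was not called by edgeR either, nor by DESeq2 at 8 h, and DESeq2 gave no adjusted p at 6 h. SDC had 4.62 in WT 0 h and 4.77 and 10.7 in iSPCH 0 h.

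Genes of starch metabolism were read beside QQS, together with NF-YC4, the transcription factor subunit that the QQS protein is known to bind. Of the 22 tested, 0 were higher and 2 lower at 6 h, and 1 was higher and 2 lower at 8 h. The background in either direction is 4.71% and 10.7%, and whether the list differs from it was not tested. SS1, a starch synthase gene, was lower at both hours, at -0.33 ± 0.08 (limma, adjusted p = 0.0294) and -0.30 ± 0.08 (adjusted p = 0.0303). APL1, coding for a subunit of the enzyme that makes ADP-glucose, was lower at 6 h, at -0.33 ± 0.08 (limma, adjusted p = 0.0351). At 8 h the beta-amylase gene BAM1 was lower, at -0.41 ± 0.08 (limma, adjusted p = 0.00392), and SEX4, a phosphatase gene needed to break starch down, was higher by 0.71 ± 0.14 (adjusted p = 0.00291). NF-YC4 differed by -0.27 ± 0.09 at 6 h (limma, adjusted p = 0.139) and by -0.20 ± 0.09 at 8 h (adjusted p = 0.224). At 0 h, when QQS was 5.50-fold apart on the scale with 1 added, NF-YC4 stood at 655 in WT and at 648 and 667 in iSPCH. The list's median difference was -0.12 at 6 h and -0.06 at 8 h.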

How the data were processed

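Poly-A RNA of whole seedlings was sequenced in 11 libraries of 6 groups. The authors deposited 1 table of 33602 loci by 6 columns, a signal value per locus and group, which is the group mean of normalised read counts, per the file headers. Per the submitters' processing notes CASAVA 1.8, TopHat, DESeq and TAIR10 were used, without roles. The sources used here do not give the versions of TopHat and DESeq, the counting tool or its strand setting.

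Every value is, to the digits deposited, a whole multiple of 1 step (WT 0 h) or a sum of whole multiples of 2 steps (the other groups), so whole reads per library and the authors' size factors were solved for 33479 loci. The other 123, each with a highest mean of at least 11805.5, had several solutions, hold 32.0% of reads and were not tested. Columns not used number 0. The order of the libraries in a pair is arbitrary. Reads divided by size factors were tested as log2(value + 1) with limma 3.58.1 in R 4.3.3 (limma-trend, robust, 1 coefficient per group, all 11 libraries), at an FDR of 0.05, for the 19665 loci that reached a CPM of 1 in 2 or more libraries. The fit takes WT 0 h, which has 1 library, to vary as the other groups do. The scripts were tested on simulated data.

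Tried instead were 0.1 or 5 as the added count, TMM or library size for scaling, a filter at a mean CPM of 5 or none, edgeR 4.0.16 quasi-likelihood, DESeq2 1.42.0, no robust variance, only the groups compared, and each library left out. Copies (at least 95% identity over at least 100 bases) were sought with BLAST+ 2.17.0, and coding sequences aligned with Biopython 1.88. TAIR10.1 matched 32835 loci. The 10 loci and the lists (silencing, methylation-silenced loci, Sm proteins, starch) were chosen with earlier results of these data known. Named besides are up to 3 members of a list with the smallest p at 8 h, the nearest tested neighbours and those called at both hours, the chromosome 4 run, SADHU elements, and the 3 loci most like each of QQS, SADHU3-2, AT1G67105 and AT4G30330. CLSY1, APL1, MET1, NF-YC4 and SDC were picked from their lists after their values were seen. Depth was 15.66M to 32.81M reads a library, with the 123 loci split evenly within pairs.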

Additional observations from a re-analysis of the deposited data

Results flagged for a closer look

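From 0 h to 8 h AT2G15420 moved in opposite directions in the lines. It changed by -1.22 (log2) in WT, where both 8 h libraries (5.24 and 10.2) lay below the 0 h library (18.5), and by 0.26 in iSPCH, where both 8 h libraries (89.2 and 79.6) lay above both 0 h libraries (63.9 and 76.8). AT4G22510 changed by -0.20 in WT, where both 8 h libraries (133 and 159) lay below the 0 h library (166), and by 1.06 in iSPCH, where both 8 h libraries (109 and 80.8) lay above both 0 h libraries (47.7 and 41.8). The difference between the lines was not tested for either locus, since 0 h served to choose them, and WT 0 h is 1 library.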

How the results depend on the processing

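The calls of QQS, SADHU3-2, AT1G67105, AT2G15420, AT3G31540, AT4G30330 and AT5G35935 held at 6 h and 8 h under each of the 20 or 21 alternatives that gave a value, with the highest adjusted p 0.0268 (AT1G67105 at 6 h), and no value of the 10 changed sign. The filter at a mean CPM of 5 gave no value for AT2G15420, AT3G31540 and AT4G30330. AT2G15420 passed the main filter through iSPCH libraries alone, and AT3G31540 and AT4G30330 through WT libraries alone. A line difference was thus part of how they entered the test. The 8 h call of AT4G22510 was lost with library size (-0.50, adjusted p = 0.091), no filter (adjusted p = 0.0633), DESeq2 (adjusted p = 0.129), and without library A (adjusted p = 0.0514) or B (adjusted p = 0.0522) of WT 6 h or library A of WT 8 h (-0.75, adjusted p = 0.0608), besides the left-out libraries given above. Its 6 h difference passed the test without library A (adjusted p = 0.0462) or B (adjusted p = 0.0451) of iSPCH 8 h. The cause was not tested. The number of loci called at 6 h (927) was 540 with only the groups compared, and 228 to 1404 with a library left out. It fell to 326 without iSPCH 6 h B, 228 without WT 6 h A and 283 without WT 6 h B, and was 1404 without iSPCH 6 h A. At 8 h (2104) it was 1113 to 2524, with 1261 and 1244 without iSPCH 8 h A and B and 1113 without WT 8 h B. The difference of differences (220) gave 106 to 319, with 128 without iSPCH 8 h A, 106 and 119 without WT 6 h A and B, and 136 without WT 8 h A. WT 8 h against 6 h (81) gave 39 with no filter, 125 with edgeR, 175 with DESeq2, 164 with only the groups compared, and 5 to 185 with a library left out, with 53 without iSPCH 0 h A, 184 and 185 without iSPCH 6 h A and B, 27 and 6 without WT 6 h A and B, and 5 and 140 without WT 8 h A and B. In iSPCH (1477) it gave 838 with only the groups compared and 753 to 1481 with a library left out, with 843 and 753 without iSPCH 8 h A and B. Scaling by library size moved the median of all loci to 0.11 at 6 h and 0.09 at 8 h, and gave 767 higher and 429 lower at 6 h, 1757 and 639 at 8 h, and 1033 and 560 in iSPCH from 6 h to 8 h, where the authors' size factors gave 228 and 699, 934 and 1170, and 780 and 697. No paired analysis was possible because the columns are group means and the replicate numbers of the labels cannot be traced to the recovered libraries. The 7 to 21 reads a library of AT4G30330 in iSPCH limit the precision of its differences.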
